A study of Mus musculus with 10 samples.

Results

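The genes described here are 38 genes of the unfolded protein response and the secretory pathway, listed by symbol and read from microarrays of mouse plantaris muscle. They were found in the array's annotation through probe sets that carry 1 gene symbol, and where a gene had several such probe sets the brightest over all arrays was used. That gave a value for 36 of the 38 genes, out of 22180 genes measured in the same way. Pdia4 lies only on a probe set of several symbols and Fkbp10 was not found under its symbol, so neither has a value here. The muscles came from male C57BL/6 mice, and each of the 10 arrays held RNA mixed in equal amounts from 4 muscles, with 2 such pools in each of 5 groups. In the overload groups the synergist muscles of the plantaris had been ablated, a surgery that makes the plantaris carry more load and grow. Overload was studied at 3 d and at 10 d, at each time without and with a drug against PDGF (platelet-derived growth factor) that the labels do not name, here called the inhibitor, and the fifth group had neither overload nor inhibitor. No group received the inhibitor without overload. Values are log2 levels, as deposited, and pools are numbered 1 and 2 only to tell them apart. The labels do not say that both pools of a group are from different animals, so the p-values measure the spread between these pools, which may be partly technical.

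Proteins bound for the cell surface, the matrix or the blood enter the endoplasmic reticulum (ER) through the Sec61 channel, are folded there by chaperones, lectins and disulfide isomerases, and leave in COPII vesicles. When unfolded protein builds up in the ER, the sensors Ern1 (IRE1), Eif2ak3 (PERK) and Atf6 start the unfolded protein response, which raises ER chaperones through the transcription factors Xbp1 and Atf6 and slows translation through Eif2ak3. Ddit3 (CHOP) lies at the end of the Eif2ak3 arm and is linked to cell death under lasting stress. ER-associated degradation draws misfolded proteins back out of the ER for the proteasome. In muscle, collagen is made chiefly by fibroblasts, and its folding needs dedicated helpers such as the chaperone Serpinh1 (HSP47). Because whole muscle was measured, fewer cells of a type and less RNA per cell cannot be told apart.

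Promoter sequences bear on these genes because several of them are known to carry the ER stress response element, which Atf6 and Xbp1 bind together with NF-Y. The element is written as CCAAT and CCACG with 9 bases between them, and it was searched on both strands from 250 bases before to 50 bases after each start site in RefSeq (GRCm38.p6). A window was at hand for 32 of the 38 genes. The element was found in 9 of them, or 28.1%, and in 37 of 27025 genes with a window, or 0.137%. Since the element was first described from promoters of genes of this kind, its presence here is a description of the list. The matches are shown 5′ to 3′ on each gene's own strand with 5 bases on either side, and capitals mark the fixed letters of the element. A match on the opposite strand reads CGTGG first and ATTGG last.
Hspa5, chr2:34772025-34772043: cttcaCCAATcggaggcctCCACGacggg
Hsp90b1, chr10:86705638-86705656: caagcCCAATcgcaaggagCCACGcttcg
Hsp90b1, chr10:86705533-86705551: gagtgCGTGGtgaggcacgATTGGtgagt
Pdia6, chr12:17266491-17266509: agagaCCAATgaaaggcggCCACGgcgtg
Calr, chr8:84847075-84847093: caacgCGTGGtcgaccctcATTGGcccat
Canx, chr11:50325800-50325818: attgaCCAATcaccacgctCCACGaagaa
Creld2, chr15:88819520-88819538: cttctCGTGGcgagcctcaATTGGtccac
Dnajc3, chr14:118937827-118937845: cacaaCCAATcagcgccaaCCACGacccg
Derl3, chr10:75893242-75893260: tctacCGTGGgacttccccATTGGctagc
Syvn1, chr19:6046532-6046550: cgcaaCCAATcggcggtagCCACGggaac

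The compact second form of the element, ATTGGNCCACG, was found in 2 of the 32 windows, or 6.25%, against 0.0444% of all genes with a window. The core of the unfolded protein response element bound by Xbp1, TGACGTGG, was found in 2 of 32, against 0.714% of genes. The composite element of C/EBP and ATF factors, TGATGCAAT, was found in 0 of 32, against 0.222% of genes. None of these motifs overlapped another in these windows.
Herpud1, chr8:94386377-94386387: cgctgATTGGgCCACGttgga
Dnajb11, chr16:22857852-22857862: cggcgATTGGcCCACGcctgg
Sec24d, chr3:123267470-123267477: gcgccTGACGTGGcacta
Sec23a, chr12:59012004-59012011: cccttTGACGTGGcagag

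The 250 bases before the start site are given for 3 genes to which the results return: Hspa5 and Pdia6, which rose with overload, and Herpud1, which fell. All 3 lie on the plus strand, at chr2:34771840-34772089, chr12:17266339-17266588 and chr8:94386179-94386428.
Hspa5: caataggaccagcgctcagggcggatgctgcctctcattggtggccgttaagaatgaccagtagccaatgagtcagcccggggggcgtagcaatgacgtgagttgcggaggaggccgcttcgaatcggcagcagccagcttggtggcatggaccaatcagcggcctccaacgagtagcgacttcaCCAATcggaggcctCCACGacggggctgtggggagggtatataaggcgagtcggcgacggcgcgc
Pdia6: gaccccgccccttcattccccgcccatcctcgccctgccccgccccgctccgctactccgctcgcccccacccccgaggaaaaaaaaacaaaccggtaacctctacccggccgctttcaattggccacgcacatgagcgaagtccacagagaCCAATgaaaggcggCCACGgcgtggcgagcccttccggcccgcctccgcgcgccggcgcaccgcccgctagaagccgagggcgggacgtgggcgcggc
Herpud1: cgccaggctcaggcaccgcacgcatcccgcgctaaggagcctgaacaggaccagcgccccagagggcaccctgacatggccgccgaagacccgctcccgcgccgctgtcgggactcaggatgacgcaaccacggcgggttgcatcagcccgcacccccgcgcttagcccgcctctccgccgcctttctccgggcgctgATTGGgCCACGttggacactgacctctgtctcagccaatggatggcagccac

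The median probe set of each array lay at 2.402 to 2.452, and the pools of a group correlated at 0.989 to 0.992 over all genes. The tissue label was borne out by its markers: 12 muscle fibre genes averaged between 11.25 and 11.66 in every pool. They averaged 11.61 and 11.62 without overload, 11.37 and 11.34 at 3 d, and 11.66 and 11.62 at 10 d. With the inhibitor they read 11.25 and 11.29 at 3 d. At 3 d without it, 3 of the 12 were called lower (8.18% of all genes), with a median change of -0.30. Pool 1 of 3 d overload stood apart in 1 respect, since 5 genes of granulocyte precursors averaged 3.93 in it and between 1.27 and 1.75 in the other 9 pools. Macrophage markers (9 genes) averaged 3.83 and 4.17 without overload, 7.52 and 7.16 at 3 d and 5.68 and 6.26 at 10 d. Fibroblast markers (8 genes) averaged 7.23 and 7.38 without overload, 9.11 and 9.004 at 3 d and 9.15 and 9.90 at 10 d, so that pool 2 of 10 d overload was the highest of all. The 8 did not move alike, and 6 of them were called higher at 3 d (9.31% of all genes). Postn went from 5.98 and 6.82 without overload to 10.83 and 10.96 at 3 d. Dcn did not rise at 3 d, at 10.46 and 10.29 against 10.48 and 10.58. Dividing cell markers (6 genes) averaged 2.12 and 2.11 without overload, 5.93 and 5.57 at 3 d and 4.13 and 4.22 at 10 d. Plasma cell markers (5 genes), which would mark professional secretory cells, averaged between 1.96 and 2.15, below the array medians. Of them Sdc1, which epithelial and other cells also carry, lay above the medians in every pool (3.17 to 4.30), and Mzb1 read 2.11 to 2.69. The part that these cells play in the results was not tested.

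After 3 d of overload most of the folding machinery stood higher than without overload. Of the 36 genes, 22 rose and 2 fell, which is 66.7% of them, against 17.5% of all 22180 genes called in the same comparison (limma, Benjamini-Hochberg adjusted p under 0.05 over all genes). The background was 9.31% for genes that rose and 8.18% for genes that fell. The 36 genes were chosen with earlier results of these data known, so their shares describe the list. The median change of the 36 was 0.62 on the log2 scale, beside -0.04 over all genes. At 10 d of overload 8 of the 36 rose and none fell, or 22.2%, against 5.13% of all genes, of which 3.9% rose and 1.23% fell. Between the times, 10 of the 36 were lower at 10 d than at 3 d and 1 was higher, or 30.6%, against 6.08% of all genes, of which 3.38% were lower and 2.7% higher. Each of those 10 was among the 22 that rose at 3 d, and so was each of the 8 that rose at 10 d. Both comparisons against no overload share the same pair of control pools. The rise at 3 d and the drop from 3 d to 10 d share the 3 d pools with opposite sign. Both overlaps are therefore partly built in. Pool 1 of 3 d overload is the pool with granulocyte precursor transcripts. Without it the median change of the 36 was 0.53 at 3 d and -0.30 between the times. Without pool 2 of 3 d it was 0.73 and -0.44, and with all pools 0.62 and -0.37. Each of these omissions, and each of a control pool, left 1 pool in a group. Fewer of the 36 and fewer of all genes were called in those fits. Leaving out pool 1 or pool 2 without overload left 15 or 16 calls at 3 d and 0 or 1 at 10 d.

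**Figure D1:**
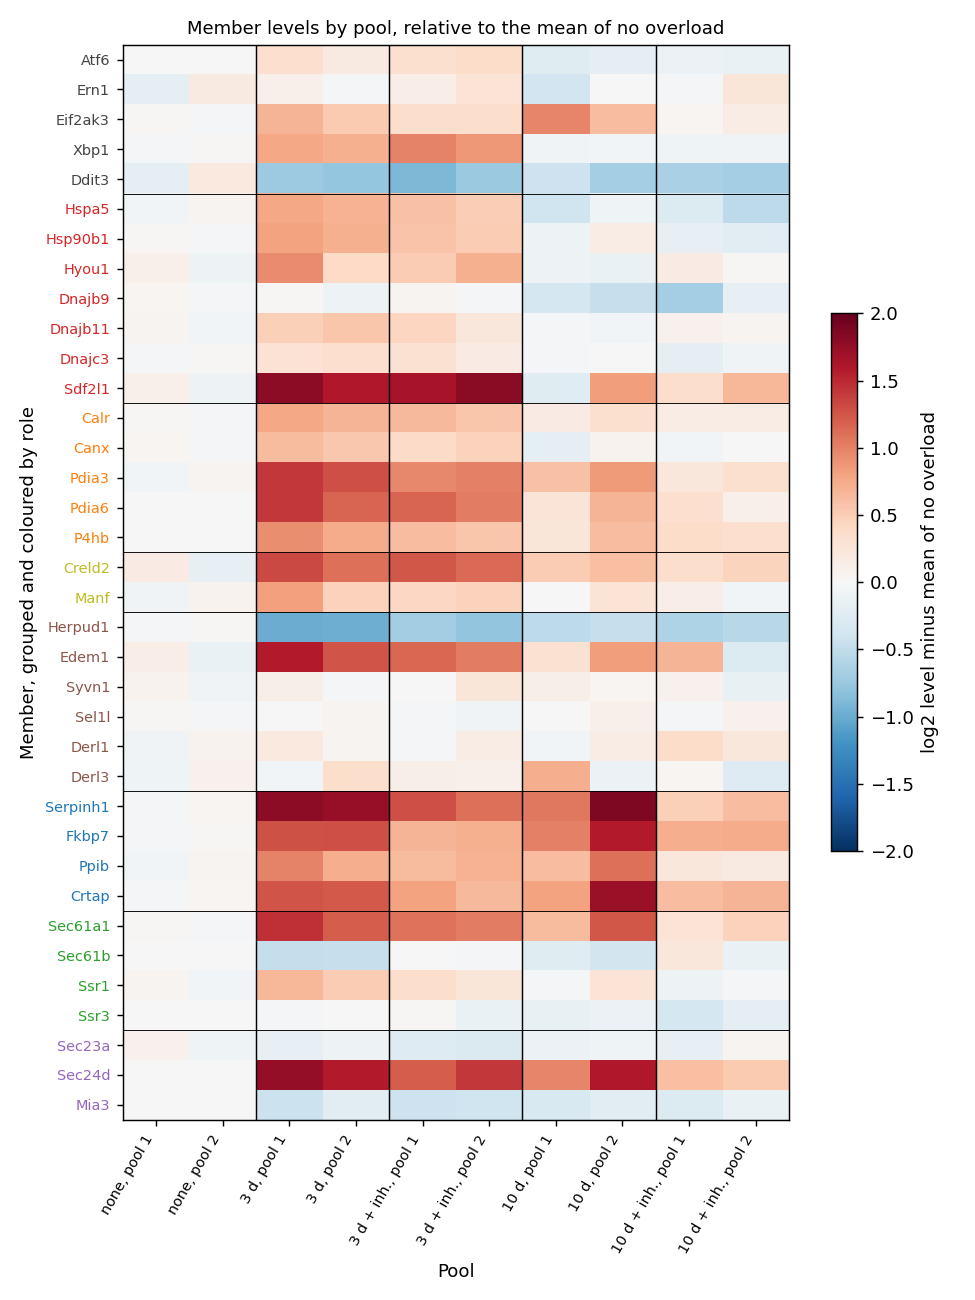
Heat map of the 36 genes (rows, grouped and coloured by role) in the 10 pools (columns), as the log2 level minus the mean of the 2 pools without overload, on a scale from blue (lower) through white to red (higher). Most chaperone and isomerase rows are red in all 4 pools at 3 d and paler at 10 d, while the rows of Serpinh1, Fkbp7, Crtap, Sec61a1 and Sec24d stay red at 10 d and Herpud1 and Ddit3 are blue in every overload pool.

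Among the sensors and transcription factors, Xbp1 and Eif2ak3 rose at 3 d, Ddit3 fell, and Atf6 and Ern1 were not called. Xbp1, the factor that Ern1 activates by splicing, had log2 levels of 6.82 and 6.87 without overload, 7.62 and 7.56 at 3 d, and 6.77 and 6.79 at 10 d. Its 3 d pools lay above all others without inhibitor, and its 10 d pools lay just under those without overload. The rise at 3 d was 0.75 ± 0.12 (log2, SE), or 1.68-fold (adjusted p = 0.0038), and the drop from 3 d to 10 d was -0.81 ± 0.12 (adjusted p = 0.0099). These probe sets do not tell spliced from unspliced Xbp1.

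Eif2ak3, the sensor kinase that slows translation, had levels of 4.84 and 4.79 without overload, 5.50 and 5.34 at 3 d, and 5.79 and 5.43 at 10 d. It stood higher in every overload pool without inhibitor than in either control pool, by 0.60 ± 0.15 at 3 d (adjusted p = 0.0279) and by 0.79 ± 0.15 at 10 d (adjusted p = 0.0244). Both calls were lost when either pool without overload was left out, the 3 d call also without either 3 d pool and the 10 d call without pool 1 of 10 d, with adjusted p of at most 0.149 at 3 d and 0.0997 at 10 d over the omissions. Ddit3, the stress factor downstream of Eif2ak3, went the other way, from 6.53 and 6.91 without overload to 5.99 and 5.95 at 3 d and 6.31 and 6.03 at 10 d. All overload pools lay below both control pools. The fall of 0.75 ± 0.17 at 3 d passed the test (adjusted p = 0.0155), and the change of -0.55 ± 0.17 at 10 d did not (adjusted p = 0.103), although it passed with brighter genes only (adjusted p = 0.0443), with an intensity trend (0.0424) and with genes at a common median (0.0494). The 3 d call was lost without either 3 d pool or without pool 2 of no overload (adjusted p up to 0.0943).

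Atf6, the sensor that is cut to become a transcription factor, had levels of 8.10 and 8.11 without overload, 8.44 and 8.28 at 3 d, and 7.87 and 7.91 at 10 d. Its 3 d pools were the higher and its 10 d pools the lower ones, but neither the 3 d change of 0.25 ± 0.12 (adjusted p = 0.222) nor the 10 d change passed the test. The difference of Atf6 between the times, -0.47, was not called either. It passed with brighter genes only (adjusted p = 0.018) and with an intensity trend (0.00479). Ern1, the sensor that splices Xbp1, gave 5.89 and 6.24 without overload, 6.17 and 6.05 at 3 d, and 5.69 and 6.06 at 10 d. The 3 groups overlapped, and the change at 3 d was 0.04 ± 0.19 (adjusted p = 0.916).

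Of the 7 chaperones, 5 rose at 3 d, none was called at 10 d, and the same 5 were lower at 10 d than at 3 d. Over all genes 9.31% rose at 3 d, 5.13% were called at 10 d and 3.38% were lower at 10 d than at 3 d. The rise and the drop share the 3 d pools, so their overlap is partly built in. Sdf2l1, a partner of the ER chaperones in folding and degradation, had levels of 3.41 and 3.22 without overload, 5.10 and 4.91 at 3 d, and 3.07 and 4.15 at 10 d. Its 3 d pools lay clear of the rest, and its 10 d pools were spread around the control pools. It rose 3.24-fold at 3 d (1.70 ± 0.31 on the log2 scale, adjusted p = 0.00594) and dropped by 1.40 ± 0.31 to 10 d (adjusted p = 0.0339, kept in 1 of 10 omissions of a pool). Hspa5 (BiP), the main HSP70 of the ER lumen and the keeper of the stress sensors, had levels of 7.23 and 7.35 without overload, 8.06 and 7.99 at 3 d, and 6.89 and 7.19 at 10 d. It rose 1.67-fold at 3 d (0.74 ± 0.16, adjusted p = 0.0121) and then dropped by 0.98 ± 0.16 (adjusted p = 0.0119), so that both 10 d pools lay below both control pools. At 10 d the difference from no overload was -0.25 and did not pass the test (adjusted p = 0.423). The rise of Hspa5 was lost without pool 1 of 3 d or pool 1 of no overload (adjusted p up to 0.0737), and its drop without either 3 d pool or pool 1 of 10 d (up to 0.0769).

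Hsp90b1 (GRP94), the HSP90 of the ER, followed Hspa5 with 9.27 and 9.22 without overload, 10.05 and 9.95 at 3 d, and 9.14 and 9.40 at 10 d. The rise was 1.69-fold (0.76 ± 0.14, adjusted p = 0.00591), and the later drop was -0.73 ± 0.14 (adjusted p = 0.02). The drop was lost in the same 3 omissions as that of Hspa5. Hyou1, which resets Hspa5 by nucleotide exchange, had 6.16 and 5.96 without overload, 7.01 and 6.46 at 3 d, and 5.96 and 5.93 at 10 d. Its 3 d pools differed from each other by more than its control and 10 d pools did from theirs, and its calls were the weakest of the group (0.67 ± 0.19 at 3 d, adjusted p = 0.0439, and -0.79 between the times, adjusted p = 0.0493). They were kept in 1 of the 10 analyses that left out 1 pool. Dnajb11, an HSP40 partner of Hspa5, rose by 0.52 ± 0.13 from 7.23 and 7.12 to 7.66 and 7.72 (adjusted p = 0.0285). That call was lost without either 3 d pool or either control pool (adjusted p up to 0.132). Dnajb11 stood at 7.14 and 7.11 at 10 d, with a drop of -0.56 (adjusted p = 0.0447) that was lost in each of the 10 omissions.

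The other two HSP40 partners of Hspa5 were not called. Dnajc3, which also restrains Eif2ak3, had levels of 7.75 and 7.79 without overload, 8.05 and 8.10 at 3 d, and 7.74 and 7.76 at 10 d. The 3 d pools were the highest, with a change of 0.31 that missed the threshold (adjusted p = 0.139). This change passed with brighter genes only (adjusted p = 0.0455) and with an intensity trend (0.0338). Dnajb9, which represses Ern1, gave 8.49 and 8.41 without overload and 8.47 and 8.35 at 3 d, with no separation, and 8.10 and 7.99 at 10 d.

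All 5 measured lectins and disulfide isomerases rose at 3 d (9.31% of all genes), by 0.59 to 1.35 on the log2 scale. Pdia3 (ERp57), the isomerase that works with the lectins on glycoproteins, changed most, with levels of 7.84 and 7.93 without overload, 9.30 and 9.17 at 3 d, and 8.47 and 8.74 at 10 d. The pools stood in 3 separate steps, highest at 3 d. The rise was 2.55-fold at 3 d (1.35 ± 0.14, adjusted p = 0.000587) and 1.64-fold at 10 d (0.72 ± 0.14, adjusted p = 0.0266), and the step down between the times was -0.63 ± 0.14 (adjusted p = 0.0374). Pdia3 was the 1 gene of the list that was both above no overload at 10 d and below its 3 d level. The 10 d call was lost without pool 2 of 10 d or either control pool (adjusted p up to 0.155), and the step between the times was kept in 1 of 10 omissions.

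Pdia6 (P5), an isomerase that acts with Hspa5, had levels of 7.28 and 7.31 without overload, 8.71 and 8.47 at 3 d, and 7.55 and 7.98 at 10 d. It rose 2.45-fold at 3 d (1.29 ± 0.18, adjusted p = 0.0018) and was lower by 0.83 at 10 d than at 3 d (adjusted p = 0.0327, kept in 1 of 10 omissions). Its 10 d pools still lay above both control pools, by 0.47, but this did not pass the test (adjusted p = 0.187). P4hb, both an isomerase and the beta subunit of collagen prolyl hydroxylase, went from 8.60 and 8.58 to 9.51 and 9.33 at 3 d, with 8.83 and 9.21 at 10 d. The 3 d rise of 0.83 ± 0.16 passed (adjusted p = 0.00691), but not without pool 1 of 3 d (0.0538).

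Calr and Canx are the soluble and the membrane-bound lectin that hold glycoproteins during folding. Calr had levels of 9.47 and 9.43 without overload, 10.23 and 10.13 at 3 d, and 9.61 and 9.77 at 10 d, and it rose 1.65-fold at 3 d (0.72 ± 0.13, adjusted p = 0.00561). Canx had 9.47 and 9.38 without overload, 10.05 and 9.97 at 3 d, and 9.23 and 9.49 at 10 d. It rose by 0.59 ± 0.14 at 3 d (adjusted p = 0.0197) and was lower by 0.65 at 10 d than at 3 d (adjusted p = 0.031). The rise of Canx was kept in 6 of 10 omissions and its drop in 3. At 10 d the pools of Canx overlapped those without overload, and those of Calr did not, though neither was called against no overload at that time. Between the times Calr differed by -0.48 and was not called. That difference passed with brighter genes only (adjusted p = 0.0192) and with an intensity trend (0.00153).

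**Figure D2:**
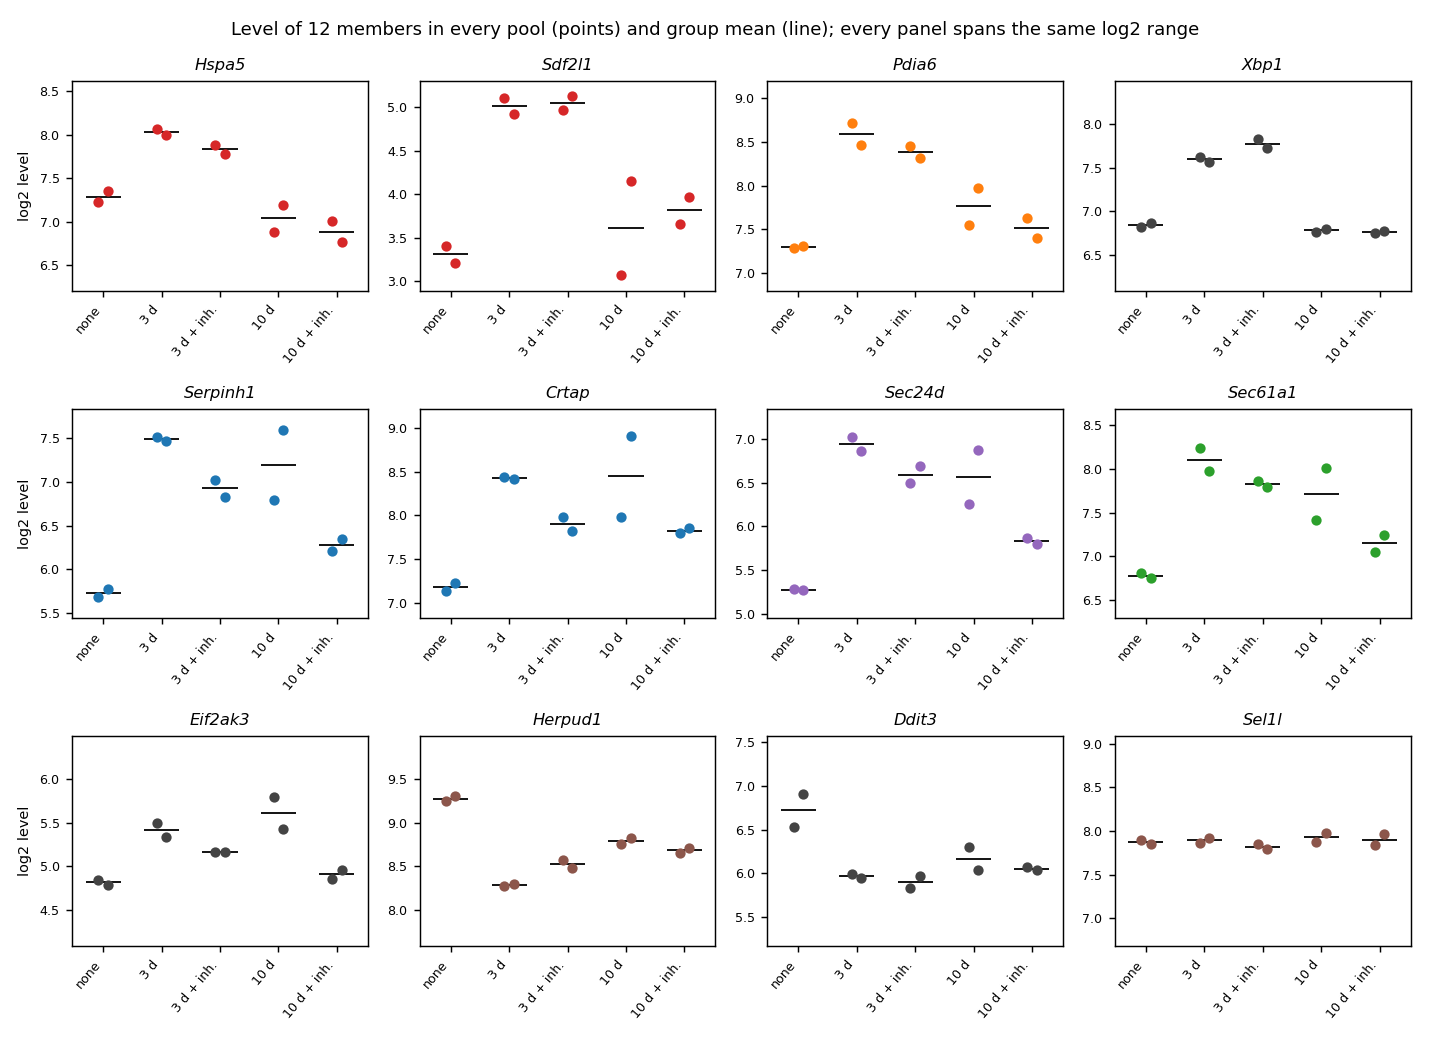
Log2 level of 12 genes (vertical axis, each panel spanning the same number of log2 units) in the 2 pools of each group (points) with the group mean (line). Hspa5, Sdf2l1, Pdia6 and Xbp1 are high at 3 d with and without the inhibitor and low at 10 d; Serpinh1, Crtap, Sec24d and Sec61a1 stay above no overload at 10 d, with pool 2 higher than pool 1; Herpud1 and Ddit3 are below no overload in all overload pools, and Sel1l is level.

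Both secreted stress proteins rose at 3 d (9.31% of all genes). Creld2, an ER protein released under stress, had levels of 6.00 and 5.66 without overload, 7.15 and 6.94 at 3 d, and 6.33 and 6.44 at 10 d. The groups did not overlap, and the rise was 2.32-fold at 3 d (1.21 ± 0.16, adjusted p = 0.00137). It was lower by 0.66 at 10 d than at 3 d (adjusted p = 0.0463, kept in 2 of 10 omissions), and its 10 d level of 0.55 above no overload did not pass (adjusted p = 0.0853). That 10 d difference of Creld2 passed with brighter genes only (adjusted p = 0.0338) and with an intensity trend (0.0265). Manf, a secreted survival factor, was dim on these arrays, at 2.57 and 2.72 without overload, 3.47 and 3.11 at 3 d, and 2.63 and 2.91 at 10 d. Its 1.56-fold rise at 3 d (adjusted p = 0.0316) was lost as a call without pool 1 of 3 d, without either control pool, and with an intensity trend in the moderation (adjusted p = 0.0905).

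Of the 6 genes of ER-associated degradation, 1 rose at 3 d, 1 fell and 4 were not called. Over all genes 9.31% rose and 8.18% fell, and counts this small cannot be told apart from those shares. Edem1, a mannosidase-like protein that hands misfolded glycoproteins to degradation, had levels of 5.01 and 4.76 without overload, 6.48 and 6.15 at 3 d, and 5.19 and 5.72 at 10 d. The 3 d pools were the highest, and the rise was 2.69-fold (1.43 ± 0.31, adjusted p = 0.0135). The call was lost without pool 1 of 3 d or pool 2 of no overload (adjusted p up to 0.0925). Herpud1, which organises the degradation complex in the ER membrane, had levels of 9.25 and 9.30 without overload, 8.28 and 8.29 at 3 d, and 8.75 and 8.82 at 10 d. The pools stood in 3 separate steps, in the order opposite to Pdia3. The fall at 3 d was 1.98-fold (-0.99 ± 0.12, adjusted p = 0.00109) and was called in each of the 10 omissions. The level at 10 d was higher by 0.50 ± 0.12 than at 3 d (adjusted p = 0.0485, lost in each omission), and its 10 d difference of -0.49 from no overload missed the threshold (adjusted p = 0.0573). It passed with brighter genes only (adjusted p = 0.0156), with an intensity trend (0.00225) and with the genes of every array at a common median (0.0265).

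The core of the degradation complex was not called in any comparison. Sel1l, the scaffold of the ubiquitin ligase, lay between 7.80 and 7.97 in all 10 pools, and Syvn1 (HRD1), the ligase itself, between 5.23 and 5.63. Derl1, a channel protein of the complex, lay between 7.90 and 8.34, and both its 10 d pools with the inhibitor (8.34 and 8.20) were above every other pool. Their changes at 3 d were 0.02, 0.04 and 0.12 on the log2 scale. Derl3, an induced relative of Derl1, was under the array medians in every pool, at 1.17 to 2.16, which leaves its change unmeasured.

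The 4 measured genes of collagen folding rose at both times (9.31% of all genes at 3 d and 3.9% at 10 d). None of them was called between the times, which does not show that their levels were equal. For each of the 4, pool 1 of 10 d lay below both 3 d pools and pool 2 of 10 d above both. Serpinh1 (HSP47), the chaperone of collagen triple helices, had levels of 5.69 and 5.78 without overload, 7.52 and 7.48 at 3 d, and 6.80 and 7.60 at 10 d. All overload pools without inhibitor lay more than 1 log2 unit above the controls, and pool 2 of 10 d lay above pool 1. The rise was 3.40-fold at 3 d (1.76 ± 0.23, adjusted p = 0.0015) and 2.76-fold at 10 d (1.46 ± 0.23, adjusted p = 0.0129), with a difference between the times of -0.30 (adjusted p = 0.549). Fkbp7, a prolyl isomerase of the ER, had 5.87 and 5.90 without overload, 7.15 and 7.18 at 3 d, and 6.89 and 7.48 at 10 d. It rose 2.43-fold at 3 d (1.28 ± 0.18, adjusted p = 0.0022) and 2.45-fold at 10 d (1.30 ± 0.18, adjusted p = 0.00834).

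Crtap and Ppib belong to the complex that hydroxylates and isomerises prolines of collagen chains. Crtap had levels of 7.14 and 7.22 without overload, 8.44 and 8.41 at 3 d, and 7.98 and 8.91 at 10 d, the widest gap between pools of 1 group among the genes of collagen folding. It rose by 1.25 ± 0.26 at 3 d (adjusted p = 0.0107) and by 1.27 ± 0.26 at 10 d (adjusted p = 0.029). Ppib (cyclophilin B) had 6.75 and 6.85 without overload, 7.80 and 7.52 at 3 d, and 7.42 and 7.91 at 10 d. Its rise was 0.86 ± 0.18 at each time (adjusted p = 0.0121 at 3 d and 0.0329 at 10 d). Without pool 2 of 10 d the 10 d calls of Crtap and Ppib were lost and those of Serpinh1 and Fkbp7 were kept. Over the 10 omissions the 10 d calls of Crtap and Ppib were kept in 3 each. Without pool 2 of no overload, Fkbp7 alone of the 4 was kept at 10 d. Without pool 1 of no overload, all 4 were lost at 10 d (adjusted p up to 0.167), and so were those of Crtap and Ppib at 3 d. The 3 d call of Crtap was also lost without either 3 d pool (adjusted p up to 0.0623), and that of Ppib without pool 1 of 3 d (adjusted p up to 0.0877).

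In the plot of scores, the median of the 4 genes of collagen folding, each centred on its mean over the pools, was -0.82 and -0.76 without overload, 0.48 and 0.47 at 3 d and 0.08 and 0.83 at 10 d. The fibroblast markers had the same pool on top, at 9.90 in pool 2 of 10 d against 9.15 in pool 1. The same score over the 7 chaperones was -0.15 and -0.23 without overload, 0.58 and 0.37 at 3 d and -0.33 and -0.22 at 10 d. Both 10 d pools of the chaperones lay near or under the controls. Macrophage markers were also lower at 10 d (5.68 and 6.26) than at 3 d (7.52 and 7.16). So were dividing cell markers (4.13 and 4.22 against 5.93 and 5.57). Unlike the chaperones, both sets of markers stayed above their levels without overload at 10 d. Fibroblast markers averaged 9.15 and 9.90 at 10 d against 9.11 and 9.004 at 3 d, so that pool 1 hardly differed from 3 d. In that pool Postn (10.23) lay below both 3 d pools (10.83 and 10.96). The part of the numbers of fibroblasts, macrophages and dividing cells in these levels was not tested.

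**Figure D3:**
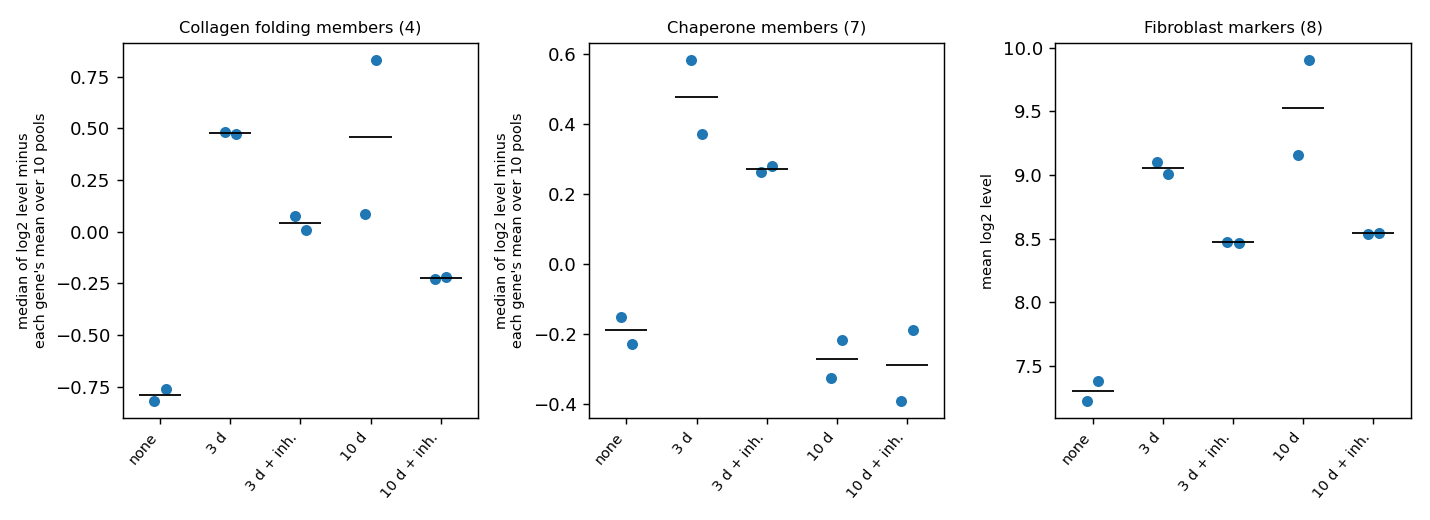
Median of the centred log2 levels of the 4 genes of collagen folding (left) and of the 7 chaperones (middle), and mean log2 level of 8 fibroblast markers (right), in the 2 pools of each group (points) with the group mean (line). Collagen folding and fibroblast markers are both highest in pool 2 of 10 d overload and lower in all inhibitor pools, whereas the chaperones are at or under the control level at 10 d.

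At the translocon, Sec61a1, the pore-forming subunit of the channel, had levels of 6.81 and 6.75 without overload, 8.24 and 7.98 at 3 d, and 7.41 and 8.02 at 10 d. Every overload pool lay above the controls. The rise was 2.52-fold at 3 d (1.33 ± 0.20, adjusted p = 0.00282), called in each of the 10 omissions, and 1.92-fold at 10 d (0.94 ± 0.20, adjusted p = 0.0369), kept in 1 of 10. Ssr1, a subunit of the translocon-associated complex, rose by 0.59 ± 0.15 at 3 d, from 7.75 and 7.64 to 8.37 and 8.19 (adjusted p = 0.0287), and had 7.66 and 7.97 at 10 d. The 3 d call was lost without either 3 d pool or either control pool (adjusted p up to 0.155). Its partner Ssr3 stayed between 8.13 and 8.51 in all 10 pools. Sec61b, the small beta subunit, was dim at 1.33 to 2.03, and its change of -0.46 at 3 d did not pass (adjusted p = 0.0654). It passed with the genes of every array at a common median (-0.66, adjusted p = 0.0192).

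Of the 3 genes of COPII export, only Sec24d was called against no overload. Sec24d, a cargo-selecting coat subunit whose loss is known to impair collagen export, had levels of 5.28 and 5.27 without overload, 7.03 and 6.86 at 3 d, and 6.26 and 6.87 at 10 d. The 4 overload pools lay about 1 log2 unit or more above the controls. It rose 3.18-fold at 3 d (1.67 ± 0.20, adjusted p = 0.00098) and 2.44-fold at 10 d (1.29 ± 0.20, adjusted p = 0.0113). Over the omissions of a pool the 10 d change was 0.98 to 1.60, and the 10 d call was lost without either control pool. Sec23a, its partner in the inner coat, lay between 8.32 and 8.68 over all pools and had -0.14 at 3 d. Mia3 (TANGO1), which loads collagen into the vesicles, had 8.19 and 8.20 without overload, 7.77 and 7.99 at 3 d, and 7.89 and 7.98 at 10 d. Its overload pools lay below both controls, but the change of -0.32 at 3 d did not pass (adjusted p = 0.158). It passed with an intensity trend in the moderation (adjusted p = 0.042) and with the genes of every array set to a common median (-0.51, adjusted p = 0.0367).

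**Figure D4:**
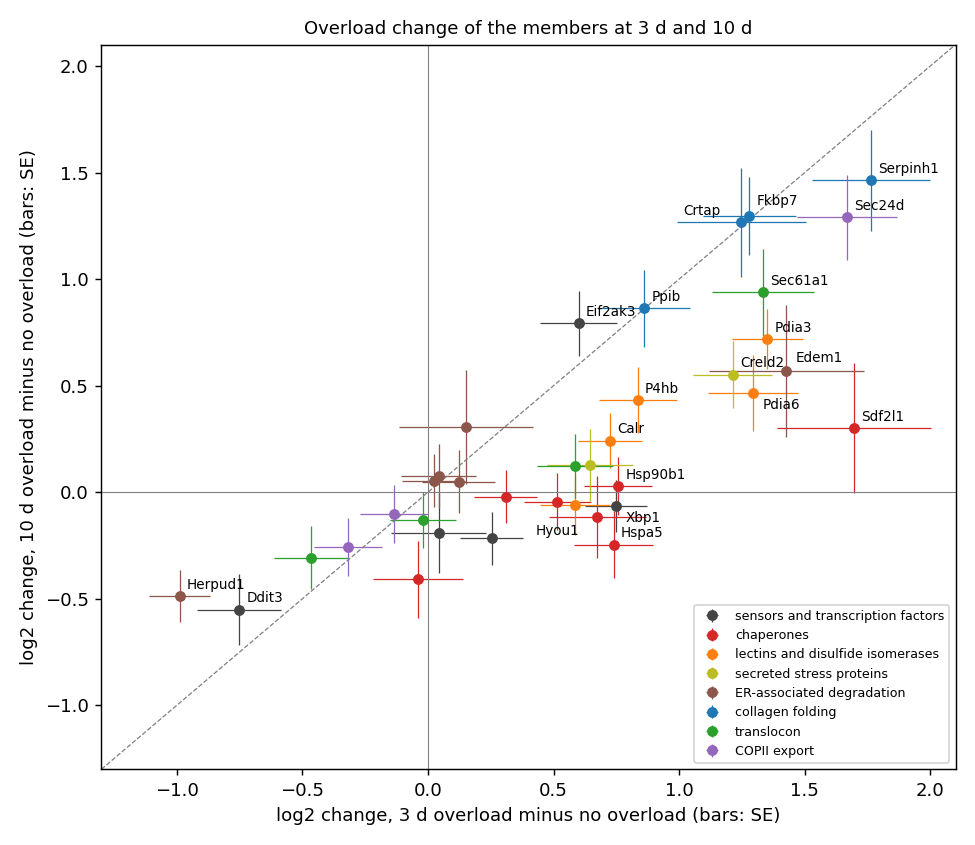
Log2 change against no overload at 3 d (horizontal axis) and at 10 d (vertical axis) of the 36 genes, coloured by role, with bars for the SE and a dashed line where both changes are equal. Both axes use the same control pools. The genes of collagen folding lie near the dashed line with changes of 0.86 to 1.76, while Hspa5, Hsp90b1, Hyou1 and Xbp1 lie near 0 at 10 d.

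The level at which arrays are set to each other bears on these counts. The median gene stood higher in the overload arrays, and setting it equal in all arrays, an alternative added after the data were seen, shifted every change by -0.19 at 3 d and -0.17 at 10 d. At 3 d the split over all genes then went from 2066 higher and 1815 lower to 1567 higher and 3295 lower. Among the 36 genes it went from 22 higher and 2 lower to 16 higher and 4 lower. The genes that then missed the threshold at 3 d were Eif2ak3, Hyou1, Dnajb11, Canx, Manf and Ssr1. At 10 d the split over all genes went from 865 higher and 273 lower to 678 higher and 896 lower, and that of the 36 genes from 8 higher and 0 lower to 7 higher and 2 lower. Herpud1 (-0.65, adjusted p = 0.0265) and Ddit3 (-0.72, adjusted p = 0.0494) were then called lower at 10 d, and Eif2ak3 was lost (adjusted p = 0.0625).

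Against no overload, 3 d of overload with the inhibitor raised many of the same genes: 13 of the 36 genes rose and 2 fell, or 41.7%, against 14.2% of all genes (7.71% higher and 6.51% lower). All 13 were among the 22 that rose without the inhibitor. With and without the inhibitor, the changes are taken from the same pair of control pools, so this overlap is partly built in. Xbp1 reached 7.83 and 7.72 (0.93 ± 0.12 above no overload, adjusted p = 0.00215). Sdf2l1 reached 4.97 and 5.12, a rise of 1.73 ± 0.31 (adjusted p = 0.00724), and Creld2 reached 7.07 and 6.97, a rise of 1.19 (adjusted p = 0.00225). Sec24d reached 6.49 and 6.69, a rise of 1.31 (adjusted p = 0.00389), Serpinh1 7.03 and 6.83, a rise of 1.19 (adjusted p = 0.0116), and Pdia6 8.46 and 8.31, a rise of 1.09 (adjusted p = 0.00532). Sec61a1 at 7.86 and 7.80 rose by 1.05 (adjusted p = 0.0106). Herpud1 at 8.57 and 8.48 and Ddit3 at 5.83 and 5.97 fell, by 0.75 (adjusted p = 0.00513) and 0.82 (adjusted p = 0.0137). The other genes that rose were Hsp90b1, Calr, Pdia3, P4hb, Fkbp7 and Ppib, by 0.54 to 0.98. Fewer of the 36 and fewer of all genes were called when either pool of this group or either control pool was left out. The median change of the 36, 0.43 with all pools, was then 0.42 to 0.46.

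At 10 d with the inhibitor, 0 of the 36 genes were called against no overload (limma), against 1.56% of all genes (1.13% higher and 0.428% lower), and 9 had an unadjusted p under 0.05. The smallest adjusted p was that of Herpud1 (8.65 and 8.71, change -0.59 ± 0.12, adjusted p = 0.0547). Next came Fkbp7 with 6.61 and 6.63 (0.74 ± 0.18, adjusted p = 0.0975) and Ddit3 with 6.07 and 6.04 (-0.67 ± 0.17, adjusted p = 0.0986). With an intensity trend in the moderation these 3 were called, at adjusted p of 0.00101, 0.0176 and 0.0274. Serpinh1 had 6.21 and 6.35, above both controls by 0.55 on average (adjusted p = 0.32), and Sec24d had 5.87 and 5.80, above by 0.56 (adjusted p = 0.232).

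Set directly against overload without it, the inhibitor gave no call among the 36 genes at either time (limma). At 3 d no gene of all 22180 was called (percent called 0, with 9.07% of all genes and 4 of the 36 at an unadjusted p under 0.05). At 10 d 23 genes or 0.104% were called (0.0225% higher and 0.0812% lower), with 10.6% of all genes and 9 of the 36 at an unadjusted p under 0.05. The median change of the 36 was -0.13 at 3 d and -0.11 at 10 d, beside 0.03 and 0.01 over all genes. Lower mean levels with the inhibitor were seen for 20 of the 22 genes that had risen at 3 d and for all 8 that had risen at 10 d, a count without a test, and these differences share the overload pools by which the 22 and the 8 were chosen. Pools with and without the inhibitor did not overlap, with the inhibitor pools lower, for 20 of the 36 genes at 3 d (17.7% of all genes) and for 15 at 10 d (19.5% of all genes).

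The largest inhibitor differences were those of Fkbp7, Serpinh1 and Crtap at 3 d (-0.58, -0.57 and -0.52) and of Serpinh1, Sec24d and Eif2ak3 at 10 d. For Serpinh1 the inhibitor pools read 7.03 and 6.83 against 7.52 and 7.48 at 3 d, and 6.21 and 6.35 against 6.80 and 7.60 at 10 d. The inhibitor pools lay below at both times, by -0.57 ± 0.23 at 3 d (adjusted p = 0.525, 95% interval -1.11 to -0.03) and by -0.92 ± 0.23 at 10 d (adjusted p = 0.215, 95% interval -1.45 to -0.38). Fkbp7 read 6.57 and 6.60 against 7.15 and 7.18 at 3 d, a difference of -0.58 ± 0.18 (adjusted p = 0.399), and 6.61 and 6.63 against 6.89 and 7.48 at 10 d, a difference of -0.56 ± 0.18 (adjusted p = 0.314). Crtap at 10 d read 7.79 and 7.85 against 7.98 and 8.91 (-0.62, adjusted p = 0.434), and Ppib 7.02 and 6.99 against 7.42 and 7.91 (-0.66, adjusted p = 0.239). Sec24d read 5.87 and 5.80 against 6.26 and 6.87 at 10 d (-0.73 ± 0.20, adjusted p = 0.239). Eif2ak3 read 4.86 and 4.96 against 5.79 and 5.43 at 10 d, close to the control pools, a difference of -0.70 ± 0.15 (adjusted p = 0.172). Fibroblast markers moved along, at 8.48 and 8.47 with the inhibitor against 9.11 and 9.004 at 3 d, and 8.54 and 8.55 against 9.15 and 9.90 at 10 d. Dividing cell markers were lower with the inhibitor in both pools of each time. They read 4.52 and 4.52 against 5.93 and 5.57 at 3 d, and 3.26 and 2.98 against 4.13 and 4.22 at 10 d. Of these 6 genes, 1 was called lower at 10 d (0.0812% of all genes) and 5 for the mean over both times (0.225% of all genes). Macrophage markers read 6.96 and 6.69 against 7.52 and 7.16 at 3 d, and 5.39 and 5.48 against 5.68 and 6.26 at 10 d. The part of these cells in the inhibitor differences was not tested.

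The 10 d result turned on which pool without the inhibitor was used. Without pool 1 of 10 d overload, 3 of the 36 genes were called lower with the inhibitor: Serpinh1 (-1.32, adjusted p = 0.0245), Crtap (-1.08, adjusted p = 0.0369) and Sec24d (-1.04, adjusted p = 0.0475). The same omission took the calls over all genes from 23 to 180, 9 higher and 171 lower. Without pool 2, the pool with the highest fibroblast markers, 0 of the 36 and 0 of all genes were called.

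For the chaperones and Xbp1 the inhibitor differences were small, with wide intervals. Hspa5 read 7.88 and 7.78 with the inhibitor against 8.06 and 7.99 at 3 d, a difference of -0.20 with a 95% interval of -0.55 to 0.16. Xbp1 read slightly higher with the inhibitor at 3 d (0.18, interval -0.10 to 0.46) and level at 10 d (-0.02, interval -0.30 to 0.26). Sdf2l1 differed by 0.04 at 3 d, with an interval of -0.66 to 0.73 that neither shows nor shuts out a sizeable effect. Creld2 differed by -0.02 at 3 d (interval -0.38 to 0.34) and Pdia6 by -0.21 (interval -0.61 to 0.20).

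**Figure D5:**
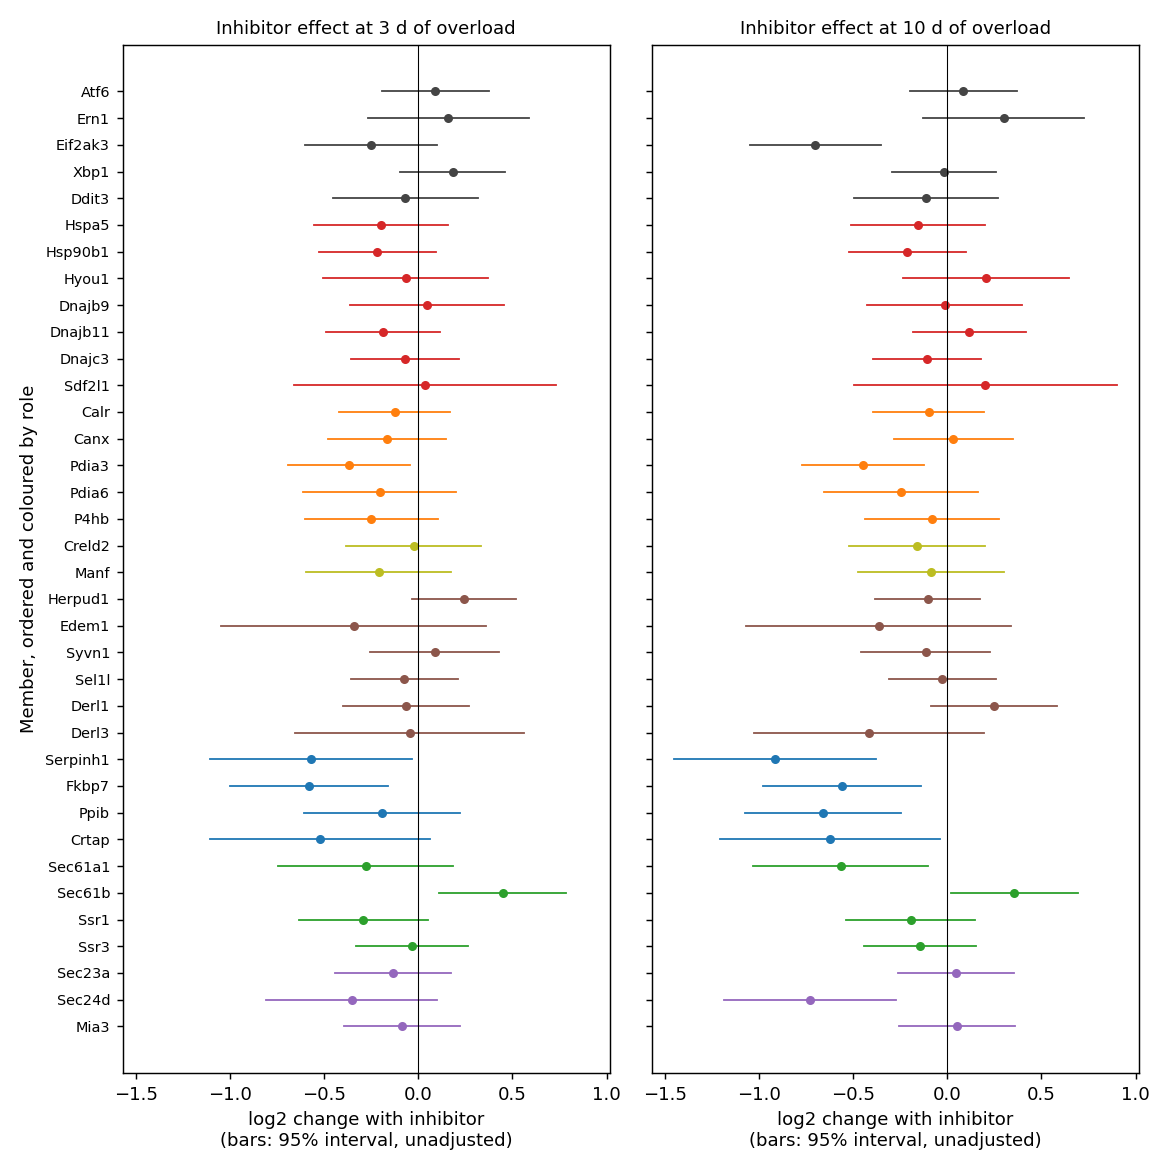
Log2 change with the inhibitor at 3 d (left) and at 10 d (right) of overload for the 36 genes, ordered and coloured by role, with bars for the unadjusted 95% interval. Serpinh1, Fkbp7 and Pdia3 lie to the left of 0 with intervals that do not reach it at both times, Eif2ak3, Ppib, Crtap, Sec61a1 and Sec24d do so at 10 d, the dim Sec61b lies to the right at both times, and no gene passed the adjusted threshold.

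Averaged over both times, with 4 pools on either side, 0 of the 36 genes passed (limma) against 0.289% of all genes (0.0631% higher and 0.225% lower), and 10 had an unadjusted p under 0.05. The largest mean difference was that of Serpinh1 (-0.74 ± 0.17, adjusted p = 0.115), followed by Crtap and Fkbp7 at -0.57 each (adjusted p = 0.236 and 0.123), Sec24d at -0.54 (adjusted p = 0.16) and Eif2ak3 at -0.48 (adjusted p = 0.119). Pdia3 read -0.41 (adjusted p = 0.143). Leaving out pool 1 of 10 d overload brought Serpinh1, Fkbp7, Crtap and Sec24d under the threshold, with adjusted p of 0.0144 to 0.0321, and took the calls over all genes from 64 to 341, 33 higher and 308 lower. The inhibitor difference was not shown to depend on time: the test of the difference between 10 d and 3 d called 0 of the 36 and 0 genes in all, with 6.47% of all genes and 0 of the 36 at an unadjusted p under 0.05.

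Genes with the same promoter element did not all change alike. Of the 9 genes with the ER stress response element, Hspa5, Hsp90b1, Calr, Canx, Pdia6 and Creld2 rose at 3 d. So did 22 of all 36 genes and 9.31% of all genes measured. Dnajc3 and Syvn1 were not called, and Derl3 was too dim for its change to be measured. Of the 2 with the compact form, Dnajb11 rose and Herpud1 fell. Of the 2 with the core bound by Xbp1, Sec24d rose and Sec23a was not called. The 4 genes of collagen folding have windows without any of the 4 motifs, which says only that those letters are not in those windows.

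Other genes of the same pathways, 111 in 8 lists, were read in the same way. The lists were grouped by function, but they were chosen with earlier results of these data known. At 3 d, 27 of the 111 rose and 6 fell, with a median of 0.25 beside -0.04 over all genes, of which 9.31% rose and 8.18% fell. At 10 d, 6 rose and 2 fell, against 3.9% and 1.23% of all genes. Between the times 3 were higher and 6 lower at 10 d, against 2.7% and 3.38% of all genes. The shares at 10 d and between the times are near those of all genes. With the inhibitor, 20 rose and 5 fell against no overload at 3 d (7.71% and 6.51% of all genes), and 0 rose and 1 fell at 10 d (1.13% and 0.428% of all genes). No gene of the 111 was called for the inhibitor at 3 d or 10 d (limma).

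Among 14 further regulators, 2 rose at 3 d and 3 fell, beside 9.31% and 8.18% of all genes. Creb3l1 (OASIS), a membrane-bound factor that drives collagen genes, rose 4.03-fold, from 3.97 and 4.36 without overload to 6.20 and 6.16 (2.01 ± 0.30, adjusted p = 0.00239), and its relative Creb3 rose by 0.78 (adjusted p = 0.0202). Chac1, a glutathione-degrading enzyme that Atf4 and Ddit3 are known to induce, fell 5.29-fold at 3 d, from 6.43 and 6.00 to 3.64 and 3.99 (-2.40 ± 0.30, adjusted p = 0.00112). It was higher by 2.17 at 10 d than at 3 d (5.89 and 6.07, adjusted p = 0.00746). Without the inhibitor it was lowest at 3 d, as were Herpud1 and Ddit3. Wfs1 fell by 0.77 (adjusted p = 0.0114). Atf5, another stress factor of the Eif2ak3 arm, fell by 0.52 at 3 d (adjusted p = 0.0338) and by 1.13 at 10 d (adjusted p = 0.00499), and it was the 1 further gene called at 10 d with the inhibitor (-1.10, adjusted p = 0.0109). Ppp1r15a (GADD34), which reverses the translation block, rose by 1.27 at 3 d with the inhibitor (adjusted p = 0.00618).

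Of 17 other folding enzymes and chaperones, 8 rose at 3 d and none fell, beside 9.31% and 8.18% of all genes. The calcium-binding proteins of the ER and Golgi led, with Rcn3 at 1.84 ± 0.29, Rcn1 at 1.82 ± 0.29 and Nucb2 at 1.61 ± 0.21 (adjusted p = 0.00354, 0.00347 and 0.00143), and these 3 were also called at 10 d (1.86, 1.48 and 1.22). Of 9 other genes of collagen folding, 3 rose at 3 d (9.31% of all genes). They were led by the prolyl isomerase Fkbp11 with 5.57 and 5.66 against 3.29 and 2.86 without overload (5.80-fold, adjusted p = 0.00506). None of the 9 was called at 10 d (5.13% of all genes), where the pools of Fkbp11 read 3.88 and 5.58. Of 9 subunits of the oligosaccharyltransferase, which adds sugar chains, 4 rose at 3 d (9.31% of all genes). These were Tusc3 by 1.12, Ostc by 1.01, Stt3a by 0.96 and Ddost by 0.70. Magt1, the relative of Tusc3, fell by 0.78 at 10 d (adjusted p = 0.0156).

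In the translocon, signal peptidase and signal recognition list, 3 of 18 rose at 3 d and 2 fell (9.31% and 8.18% of all genes). Spcs3 rose by 0.82, Ssr2 by 0.74 and Sec63 by 0.48. One of the fallers was Sec61a2, the second isoform of the channel subunit, by 0.86 (adjusted p = 0.00915), while Sec61a1 rose. The other was Srpr, the receptor of the signal recognition particle, by 0.68. Of 12 other genes of degradation, Os9 alone was called without the inhibitor, with 0.66 at 3 d and 0.74 at 10 d. Over all genes 17.5% were called at 3 d and 5.13% at 10 d. Of 12 other COPII genes, Sar1b alone was called at 3 d, and it fell, by 0.71 (adjusted p = 0.00483). COPI, KDEL receptors and cargo receptors (20 genes) serve traffic between the ER and the Golgi. Of these genes, 6 rose at 3 d and none fell, beside 9.31% and 8.18% of all genes. Kdelr3, a receptor that returns ER chaperones from the Golgi, rose 4.44-fold, from 3.24 and 2.87 to 5.14 and 5.26 (adjusted p = 0.00479), Tmed3 rose by 1.09 and Kdelr2 by 0.94. Kdelr3 and Tmed3 were also called at 10 d (1.92 and 0.91).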

How the data were processed

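RNA was extracted with Qiazol and hybridised to Mouse Gene 2.1 ST arrays, per the labels, which name 2 different labelling kits. The deposited values are log2 expression levels per probe set, normalised by the authors with RMA, with oligo and limma also named, per the submitters' processing notes (versions not given in the sources used here). Of 41345 probe sets, 23521 carry 1 gene symbol, 1814 carry several and 16010 are unnamed here. The brightest probe set stood for each of 22180 genes. limma 3.58.1 in R 4.3.3 was fitted (lmFit, eBayes) to all 10 arrays with 1 coefficient per group, leaving 5 residual degrees of freedom, and p-values were adjusted over all genes by Benjamini-Hochberg for each of 9 comparisons. A gene was called, and is said to have risen or fallen, at adjusted p under 0.05. The script was tested on simulated data. The number of arrays limits the precision. The members and lists were chosen with earlier results of these data known. Levels are printed for the sensors, for called members with the largest changes, and for up to 2 members of a group without a call, and of each other list up to 3 called genes in each direction. The alternatives were array medians, the mean of a gene's probe sets, brighter genes only, an intensity trend with robust moderation, a fit to the compared groups only, and leaving out each pool, and genes at a common median were added after seeing the data. The compact form of the stress element was also added after the design was fixed. Protein sequences were not used here.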

Additional observations from a re-analysis of the deposited data

Results flagged for a closer look

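Between 10 d and 3 d of overload 11 of the 36 genes differed (limma, adjusted over all genes), or 30.6%, against 6.08% of all genes. They are the 10 lower and 1 higher genes reported above, from the same comparison. The levels of the control pools do not enter the difference, but these pools add to the shared estimate of the spread. With only the compared groups in the fit, 0 of the 36 were called. As 10 d minus 3 d on the log2 scale, the difference was -0.81 for Xbp1, -0.98 for Hspa5, -0.73 for Hsp90b1, -0.79 for Hyou1, -0.56 for Dnajb11 and -1.40 for Sdf2l1. It was -0.65 for Canx, -0.63 for Pdia3, -0.83 for Pdia6, -0.66 for Creld2 and 0.50 for Herpud1. Xbp1 was called in 9 of the 10 analyses that left out 1 pool and Hspa5 and Hsp90b1 in 7 each, and the other 8 genes in 0 to 3.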

How the results depend on the processing

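No call of the 36 genes changed direction under any alternative run. The 58 calls over the 9 comparisons were all kept with arrays at a common median and with the mean of a gene's probe sets, 57 of 57 with brighter genes only, 57 with an intensity trend and robust moderation, 43 with genes at a common median and 27 with only the compared groups in the fit. With only the compared groups, which leaves 4 arrays in a fit, 0 of the 36 genes were called at 10 d and 0 between 10 d and 3 d (31 and 202 of all genes). Genes at a common median gave 7 between the times and 1 at 10 d with the inhibitor. Brighter genes alone gave 3 at 10 d with the inhibitor. An intensity trend gave 3 there and 4 for the mean inhibitor effect (Pdia3, Serpinh1, Fkbp7 and Sec24d, all lower). Leaving out each pool in turn gave 12 to 23 calls at 3 d, 0 to 7 at 10 d, 0 to 7 between the times, 7 to 17 at 3 d with the inhibitor and 0 to 1 at 10 d with it. For the inhibitor it gave 0 to 0 at 3 d, 0 to 3 at 10 d, 0 to 4 for the mean effect and 0 to 0 for the difference between times. A lone pool is then assumed to vary like the other groups. Apart from the smaller number of arrays in those fits, the cause was not tested. No paired analysis was possible because the labels give no replicate numbers shared across groups. Derl3, Sec61b and Manf lie near or under the array medians, which limits what their changes can show.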
